A study of Homo sapiens with 36 samples.

Results

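The CTCF peaks described here lie on chromosomes 4, 13 and 18, which carry the fewest protein-coding genes per megabase of the 23 chromosomes examined (1 to 22 and X). They were taken by position alone, as every peak on these chromosomes in the 6 deposited peak lists, with lines that share a chromosome, start and end counted once. This gave 14885 distinct intervals of 179177 on all 23 chromosomes. CTCF binding was mapped by chromatin immunoprecipitation and sequencing in HEK293T, an established human embryonic kidney cell line. All groups received a transfected small interfering RNA: a control (siNC), or one against CHD3 (siCHD3), CHD4 (siCHD4), CHD5 (siCHD5), MBD2 (siMBD2) or MBD3 (siMBD3). Each condition had 3 CTCF immunoprecipitates and 3 inputs, which the authors pooled into 1 peak list per condition. No list of single replicates was used here, so no value below has a spread between replicates and no test between conditions was made. Knockdown of the targets was not analysed here.

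CTCF is a zinc-finger DNA-binding protein that marks insulators and stops loop-extruding cohesin, and so anchors many chromatin loops. NuRD is a chromatin complex that joins an ATP-driven nucleosome remodeller (CHD3, CHD4 or CHD5) to histone deacetylases. Its subunit MBD2 recognises methylated CpG, and MBD3 is a relative of MBD2 found in a separate form of the complex. Gene-poor chromosomes such as 4, 13 and 18 tend to lie towards the nuclear edge and hold long stretches of inactive chromatin, in which CTCF sites are spread thinly.

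CTCF peaks were sparse on all 3 chromosomes. RefSeq (GRCh38.p14) lists 769 protein-coding genes on chromosome 4, 338 on chromosome 13 and 270 on chromosome 18. Per megabase between the first and last CTCF peak, this came to 4.03 genes on chromosome 4, 3.53 on chromosome 13 and 3.47 on chromosome 18, against 12.0 on the gene-rich chromosomes 16, 17 and 22 together. The siNC list held 1673 peaks on chromosome 4, 835 on chromosome 13 and 641 on chromosome 18, together 3149 of 36270 (8.68%). That was 8.76, 8.71 and 8.23 peaks per megabase, against 16.9 on chromosomes 16, 17 and 22, and chromosome 18 had the lowest density of the 23. The median distance between neighbouring siNC summits was 60.4 kb on chromosome 4, 60.3 kb on chromosome 13 and 65.6 kb on chromosome 18, against 28.9 kb on chromosomes 16, 17 and 22. Peaks were thinned out less than genes: there were 2.29 siNC peaks per protein-coding gene on chromosomes 4, 13 and 18, and 1.41 on chromosomes 16, 17 and 22.

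All 5 knockdown lists held fewer peaks than siNC on each of the 3 chromosomes. On chromosome 4 the lists held 1515 peaks for siCHD3 and 1494 for siCHD5, and fewer for siMBD2 (1171), siMBD3 (1120) and siCHD4 (1115). On chromosome 13 they held 716, 716, 564, 560 and 503 in the same order. On chromosome 18 they held 530, 553, 430, 376 and 383. The lowest count relative to siNC was that of siMBD3 on chromosome 18, at 58.7% of the siNC count, and the highest that of siCHD3 on chromosome 4, at 90.6%. The lowest local background in a list is used below as a stand-in for its depth, and this was not checked against read counts. It was highest in siNC, at 2.96 fragments, and lowest in siMBD3, at 0.374. It was 0.445 in siCHD3, 1.06 in siCHD4, 1.95 in siCHD5 and 0.640 in siMBD2. The knockdowns therefore cannot be ranked by these counts, and depth, on this measure, and condition cannot be told apart from the lists.

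Chromosome 18 stood apart in local background, the number of fragments expected under a peak. In siNC the median background under its peaks was 7.11, 0.690 of the median of 10.3 over the whole list. In the knockdowns the same ratio was lowest in siCHD3 (0.636), then siMBD2 (0.643), siCHD5 (0.647), siCHD4 (0.667) and siMBD3 (0.686), and in each of the 6 lists it was the lowest of the 23 chromosomes. Chromosomes 4 and 13 lay closer to the rest, with siNC ratios of 0.897 and 0.862. The summit pileup, the number of fragments stacked at the summit, was lower too: its siNC median was 56 on chromosome 4, 52 on chromosome 13 and 46 on chromosome 18, against 59 over all chromosomes. Fold enrichment, the authors' ratio of pileup to background, was not lower in siNC, with medians of 5.37, 5.24 and 5.64 against 5.22 over all chromosomes. On the 3 chromosomes together it was lower in siCHD3 (5.98 against 6.23), siMBD2 (6.46 against 6.62) and siMBD3 (6.51 against 6.71) and higher in siCHD4 (5.08 against 5.04). Chromosome 18 had the lowest median fold of the 23 in siCHD3, 5.72, and ranked 2 from the top in siNC, siCHD4 and siCHD5. The copy number of these chromosomes in the culture, which bears on the background, was not analysed here.

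**Figure D1:**
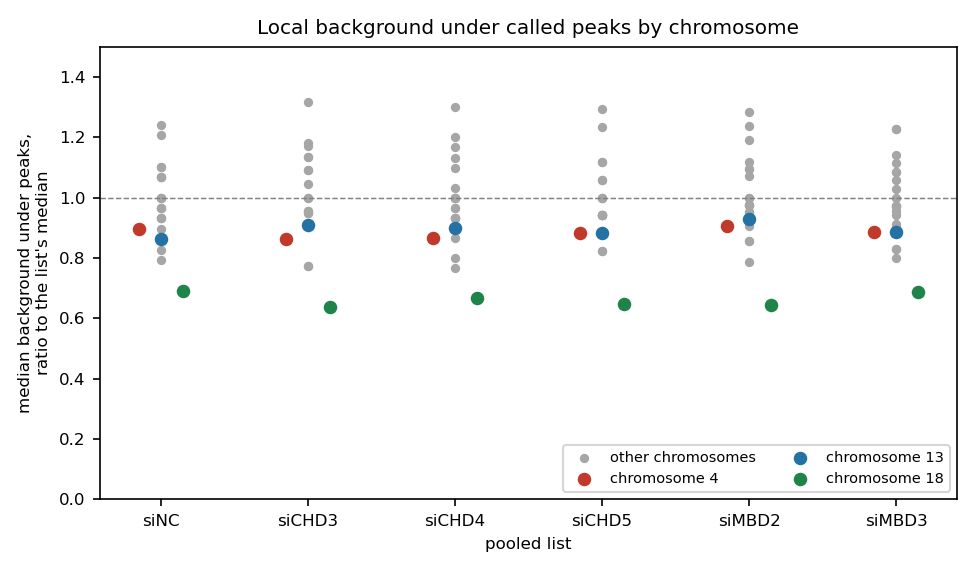
Median local background under called peaks for each of the 23 chromosomes (points), divided by the median of its list, in the 6 pooled lists (horizontal axis). Chromosome 18 lies lowest in every list, between 0.636 and 0.690, while chromosomes 4 and 13 lie among the lower of the other chromosomes.

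A siNC peak with no overlap of at least 1 bp in a knockdown list is called missing, and a knockdown peak with no overlapping siNC peak is called added. The 5 comparisons share the 1 siNC list and are set side by side, not counted as independent. Brackets give exact Clopper-Pearson 95% intervals, counted over peaks. They cover counting error alone, not the spread between replicates, and treat neighbouring peaks as independent. Fragments amplified by PCR are not independent molecules either.

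In siCHD3, 1354 of the 3149 siNC peaks on chromosomes 4, 13 and 18 were missing (43.0%, 41.3 to 44.7), against 35.4% over all chromosomes. The other chromosomes together missed 34.7% (34.2 to 35.2) and chromosomes 16, 17 and 22 missed 32.2% (30.6 to 33.8). Chromosome 18 missed 46.6%, chromosome 13 43.4% and chromosome 4 41.4%, the 3 highest shares of the 23 chromosomes. The difference of 8.27 percentage points from the other chromosomes was the largest of the 5 comparisons. Thinning each siNC summit to the siCHD3 depth predicted 35.0% missing on chromosomes 4, 13 and 18 and 32.9% on the others, a difference of 2.08 points. That prediction erred in both directions. Of the weakest 20% of siNC peaks by fold on the 3 chromosomes, 74.0% were predicted missing and 59.9% were. For the strongest 20% the values were 8.19% and 26.6%. The prediction therefore cannot say how much of the difference goes with depth. When both lists were cut at a −log10 q of 10, the share missing on the 3 chromosomes rose to 71.1% and the difference to 13.2 points. That cut kept 2474 of 3149 siNC peaks but 905 of 2761 siCHD3 peaks on these chromosomes, so fewer siCHD3 peaks were left to overlap.

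In siCHD4, 1486 siNC peaks were missing (47.2%, 45.4 to 49.0), against 41.5% over all chromosomes. The other chromosomes missed 40.9% (40.4 to 41.5) and chromosomes 16, 17 and 22 missed 41.0%. Chromosome 13 missed the highest share of the 23, 50.2%, followed by chromosome 18 with 49.3%. Chromosome 4 ranked 4 of 23 with 44.9%, behind chromosome 21 with 45.9%. Depth predicted far fewer missing peaks, 12.2% both on chromosomes 4, 13 and 18 and on the others. The difference of 6.25 points between the chromosome groups had a predicted counterpart of 0.0111 points. That prediction fell short over all chromosomes too (12.2% predicted, 41.5% missing), so it cannot say how much of the difference goes with depth. With both lists cut at a −log10 q of 10, which kept 812 of 2001 siCHD4 peaks, the difference was 11.5 points.

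In siCHD5 the 3 chromosomes did not stand apart in the share missing as counted, though they missed less at like pileup and background, as given below. There were 671 siNC peaks missing (21.3%, 19.9 to 22.8), against 21.5% over all chromosomes and 23.7% on chromosomes 16, 17 and 22 (22.3 to 25.1). The share was 20.9% on chromosome 4, 22.5% on chromosome 13 and 20.9% on chromosome 18, with ranks of 15, 6 and 14 among the 23. The difference from the other chromosomes was -0.23 points, and its sign changed with the setting. Depth predicted 2.84% missing. A −log10 q of at least 10 in the siNC list alone lowered the share missing to 9.74%.

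In siMBD2, 1219 siNC peaks were missing (38.7%, 37.0 to 40.4), against 34.9% over all chromosomes. The other chromosomes missed 34.6% (34.1 to 35.1) and chromosomes 16, 17 and 22 missed 35.6%. Chromosome 13 again had the highest share of the 23, 40.8%, with 39.3% on chromosome 18 and 37.4% on chromosome 4. Chromosome 8, the next lowest in genes per megabase (4.88), missed 38.1%, more than chromosome 4. Depth predicted 25.3% on the 3 chromosomes and 24.1% on the others. The difference of 4.13 points rose to 9.98 under the same threshold on both lists, which kept 1016 of 2165 siMBD2 peaks. The share missing fell to 23.5% in lists of equal length.

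In siMBD3, 1396 siNC peaks were missing (44.3%, 42.6 to 46.1), against 38.5% over all chromosomes. The other chromosomes missed 38.0% (37.4 to 38.5) and chromosomes 16, 17 and 22 missed 36.3%. Chromosome 18 missed 47.4%, the highest of the 23, chromosome 13 43.8% and chromosome 4 43.4%. Chromosome 8 ranked 2 of 23 with 43.9%, ahead of chromosomes 13 and 4. Depth predicted 44.1% on the 3 chromosomes, close to the value observed, but 41.3% on the others, above the value observed there. The close match on the 3 chromosomes hid errors in both directions. Of their weakest 20% of siNC peaks by fold, 81.5% were predicted missing and 67.0% were. For the strongest 20% the values were 14.4% and 25.9%. The prediction therefore cannot say how much of the difference goes with depth. The difference from the other chromosomes was 6.37 points observed and 2.78 predicted. It was 11.5 points with both lists cut at a −log10 q of 10, which kept 716 of 2056 siMBD3 peaks.

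**Figure D2:**
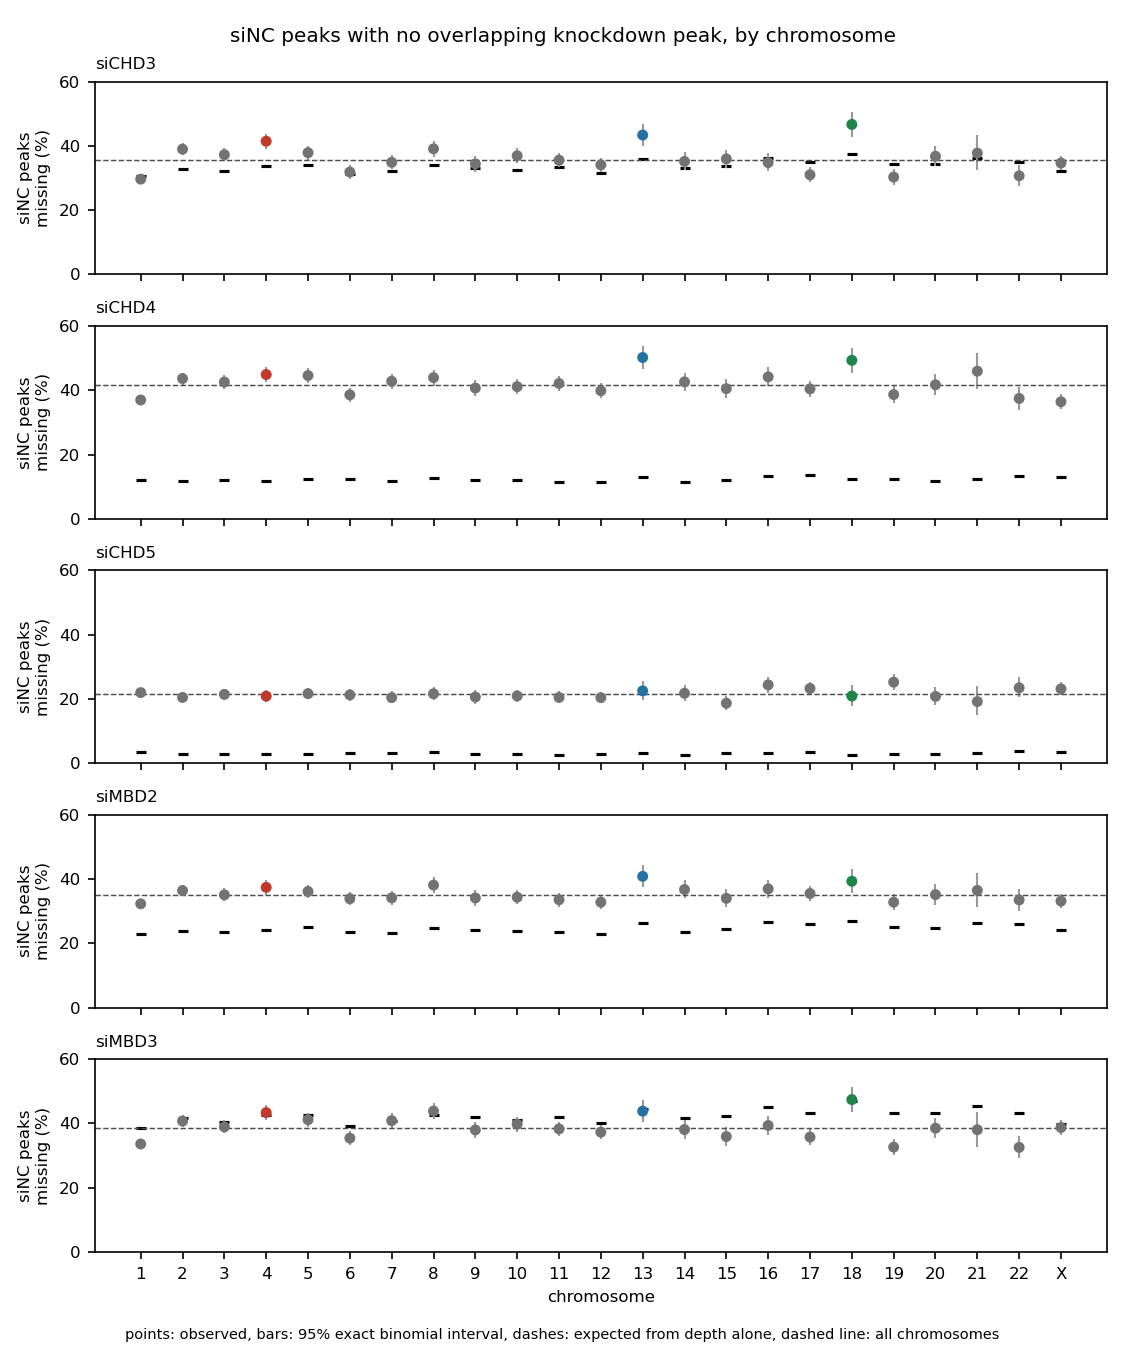
Share of siNC peaks missing (vertical axis, percent) on each of the 23 chromosomes in the 5 knockdown lists, with exact 95% binomial intervals as bars, the share predicted from depth as dashes and the share over all chromosomes as a dashed line. Chromosomes 4, 13 and 18 (coloured) lie above the line in siCHD3, siCHD4, siMBD2 and siMBD3, but close to it in siCHD5 at 20.9%, 22.5% and 20.9%.

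Peaks of high fold were missing less often than weak ones in each list. Among them, too, chromosomes 4, 13 and 18 missed a larger share than the others in siCHD3, siCHD4, siMBD2 and siMBD3. Of the weakest 20% of siNC peaks by fold, 59.9% on these chromosomes were missing in siCHD3, against 49.7% on the others. Of the strongest 20% of siNC peaks by fold (6.82 or more), 692 lay on chromosomes 4, 13 and 18. Of these, 26.6% were missing in siCHD3 (23.3 to 30.0), against 19.0% of strong peaks on the other chromosomes. The corresponding shares were 27.6% against 21.5% in siCHD4, 19.1% against 14.4% in siMBD2, and 25.9% against 19.2% in siMBD3. In siCHD5, 5.78% of the strong peaks on the 3 chromosomes were missing (4.16 to 7.79), against 5.98% over all chromosomes, which lies within that interval. The 157 strong peaks of chromosome 18 lost most: 34.4% were missing in siCHD3, 32.5% in siCHD4, 26.8% in siMBD2 and 36.3% in siMBD3, but 7.64% in siCHD5. On chromosome 4 the same shares were 24.0%, 24.9%, 16.1%, 23.2% and 4.52% in siCHD3, siCHD4, siMBD2, siMBD3 and siCHD5. Missing peaks had lain on low local background in siNC. On the 3 chromosomes their median background was 6.75 in siCHD3 against 10.3 for kept peaks, and 4.62 against 10.3 in siCHD5.

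Loss fell with rising siNC pileup in each list, and pileup differed between the chromosomes. When siNC peaks of all chromosomes were split into 5 equal classes by summit pileup, 12.1% of those on chromosomes 4, 13 and 18 fell into the class of highest pileup, against 20.7% of those on the other chromosomes. In the class of lowest pileup, 65.9% of the peaks on the 3 chromosomes were missing in siCHD3 (62.3 to 69.4), against 58.7% on the others. In siCHD4 the shares in this class were 70.1% (66.6 to 73.5) and 66.1%. In siMBD2 they were 80.5% and 81.1%, and in siMBD3 79.4% and 78.6%, within the counting intervals. In siCHD5 the order was the opposite, 67.0% (63.4 to 70.5) on the 3 chromosomes against 72.3% on the others. It was the same in the next class up, with 21.0% (18.1 to 24.2) against 28.5%. In the class of highest pileup, 10.8% of the 380 peaks on the 3 chromosomes were missing in siCHD3 (7.85 to 14.4), against 6.90% on the others. In siCHD4 the order turned round in this class, with 7.89% (5.39 to 11.1) against 9.69%, a difference within that interval. The shares there were 7.11% against 5.11% in siMBD3, 3.16% against 2.65% in siMBD2 and 0.263% against 0.378% in siCHD5, each within the counting interval of the 3 chromosomes.

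**Figure D3:**
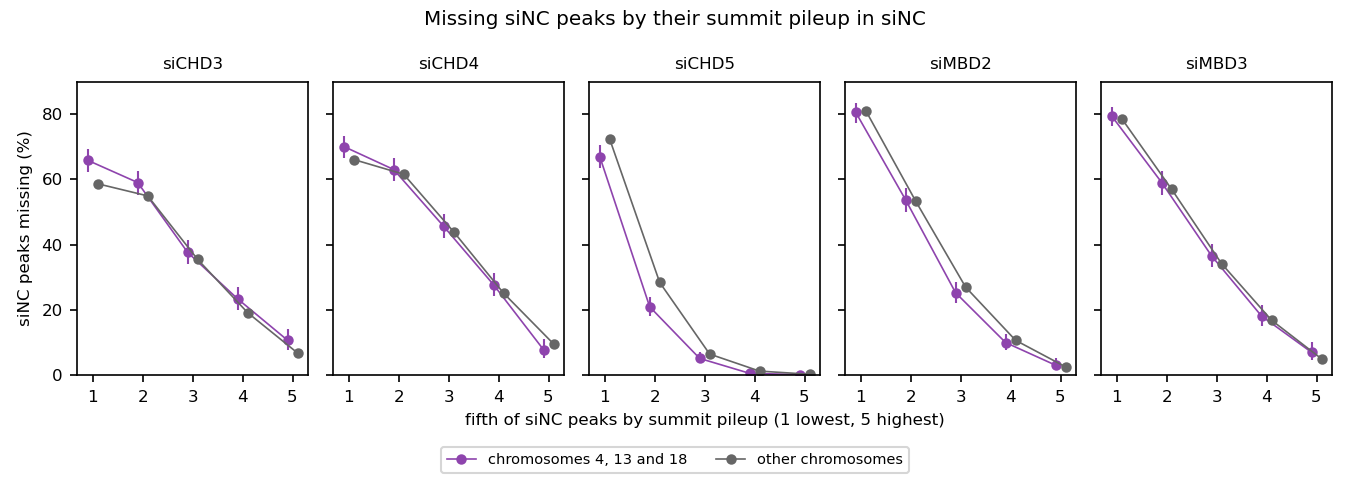
Share of siNC peaks missing (vertical axis, percent) in 5 classes of siNC summit pileup (horizontal axis) on chromosomes 4, 13 and 18 and on the other chromosomes, with exact 95% binomial intervals. In the lowest class the 3 chromosomes lie above the others in siCHD3 (65.9% against 58.7%), level with them in siMBD2 (80.5% against 81.1%) and below them in siCHD5 (67.0% against 72.3%).

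With pileup and background matched by class, the difference depended on the knockdown. Peaks of 1 class can still differ in both, and the points left over carry no interval. The rates of loss on the other chromosomes, taken in 10 classes of siNC pileup crossed with 10 of siNC background, were applied to the peaks of chromosomes 4, 13 and 18, and the result is called the standard share. In siCHD3 the standard share was 38.5%, which left 4.55 points of the difference. In siCHD4 it was 44.6%, leaving 2.56 points, and in siMBD3 42.4%, leaving 1.98 points. In siMBD2 it was 38.6% against 38.7% observed, so that 0.0806 points were left. In siCHD5 it was 24.1%, above the 21.3% observed. The 3 chromosomes also parted from each other. Chromosome 13 kept the highest remainder in siCHD4, 5.71 points, with 1.44 on chromosome 4 and 1.38 on chromosome 18. In siCHD3 the remainders were alike, 4.29 on chromosome 4, 5.04 on chromosome 13 and 4.59 on chromosome 18. Chromosome 18 fell below its standard share by 4.22 points in siMBD2 and by 7.27 points in siCHD5.

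In siCHD3, 979 of 2761 peaks on the 3 chromosomes were added (35.5%, 33.7 to 37.3), against 32.6% over all chromosomes and 35.4% on chromosomes 16, 17 and 22. In siCHD4, 347 of 2001 were added (17.3%, 15.7 to 19.1), against 16.8% over all chromosomes and 20.0% on chromosomes 16, 17 and 22. In siCHD5, 282 of 2763 were added (10.2%, 9.10 to 11.4), against 9.41% over all chromosomes. In siMBD2, 234 of 2165 were added (10.8%, 9.53 to 12.2), against 9.30%, and in siMBD3, 302 of 2056 (14.7%, 13.2 to 16.3), against 13.4%. Missing outnumbered added peaks in each list, from 1.38 missing per added peak in siCHD3 and 2.38 in siCHD5 to 4.28 in siCHD4, 4.62 in siMBD3 and 5.21 in siMBD2. Over all chromosomes these ratios were 1.15 in siCHD3, 2.64 in siCHD5, 3.53 in siCHD4, 4.02 in siMBD3 and 5.22 in siMBD2, so that siCHD5 lay below the whole list on the 3 chromosomes and siMBD2 level with it. Chromosome 4 had the highest added share of the 23 in siCHD5 (11.3%) and chromosome 18 the lowest of the 23 in siMBD3 (10.9%, 41 of 376). Added peaks were the weaker ones of their lists. On the 3 chromosomes their median fold was 4.82 in siCHD3 against 6.67 for peaks shared with siNC, and 4.37 against 6.77 in siMBD3. Added shares depended on the threshold: with −log10 q of at least 10 in the knockdown list alone, they were lowest in siMBD2 (0.787%) and siMBD3 (1.26%), 2.09% for siCHD4, 3.87% for siCHD5 and 10.6% for siCHD3.

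Along the chromosomes, gain and loss were counted in windows of 5 Mb, numbered from the start of each chromosome and assigned by peak summit. There were 39 windows on chromosome 4, 24 on chromosome 13 and 16 on chromosome 18. Of these 79, 74 held at least 10 siNC peaks and are used below. The remaining 5 lay on chromosome 13, where 3 windows held no siNC peak and the first peak of any list starts at 19255057. Windows held up to 84 siNC peaks, so the interval of 1 window is wide.

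Loss was spread over most windows. In siCHD3, 63 of the 74 windows missed a larger share than the 35.4% of the whole list, 31 of 39 on chromosome 4, 18 of 19 on chromosome 13 and 14 of 16 on chromosome 18. In siCHD4 52 windows lay above the share of the whole list, in siMBD3 55, in siMBD2 47 and in siCHD5 33. The counting interval of a window lay wholly above that share in 11 windows for siCHD4, 10 for siCHD3, 9 for siMBD2, 8 for siMBD3 and 1 for siCHD5. It lay wholly below in 1 window in siCHD5 and 1 in siMBD2. Against the standard share, windows were above in 57 of 74 in siCHD3, 46 in siCHD4, 43 in siMBD3, 30 in siMBD2 and 22 in siCHD5. Far fewer windows had a counting interval wholly above the standard share. There were 6 for siCHD4, 2 for siMBD2, 2 for siMBD3, 1 for siCHD3 and 0 for siCHD5. Wholly below it were 3 windows for siCHD5, 1 for siCHD3, 1 for siMBD2 and 0 for siCHD4 and siMBD3. On chromosome 18, 1 of 16 windows was above the standard share in siCHD5 and 3 of 16 in siMBD2.

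**Figure D4:**
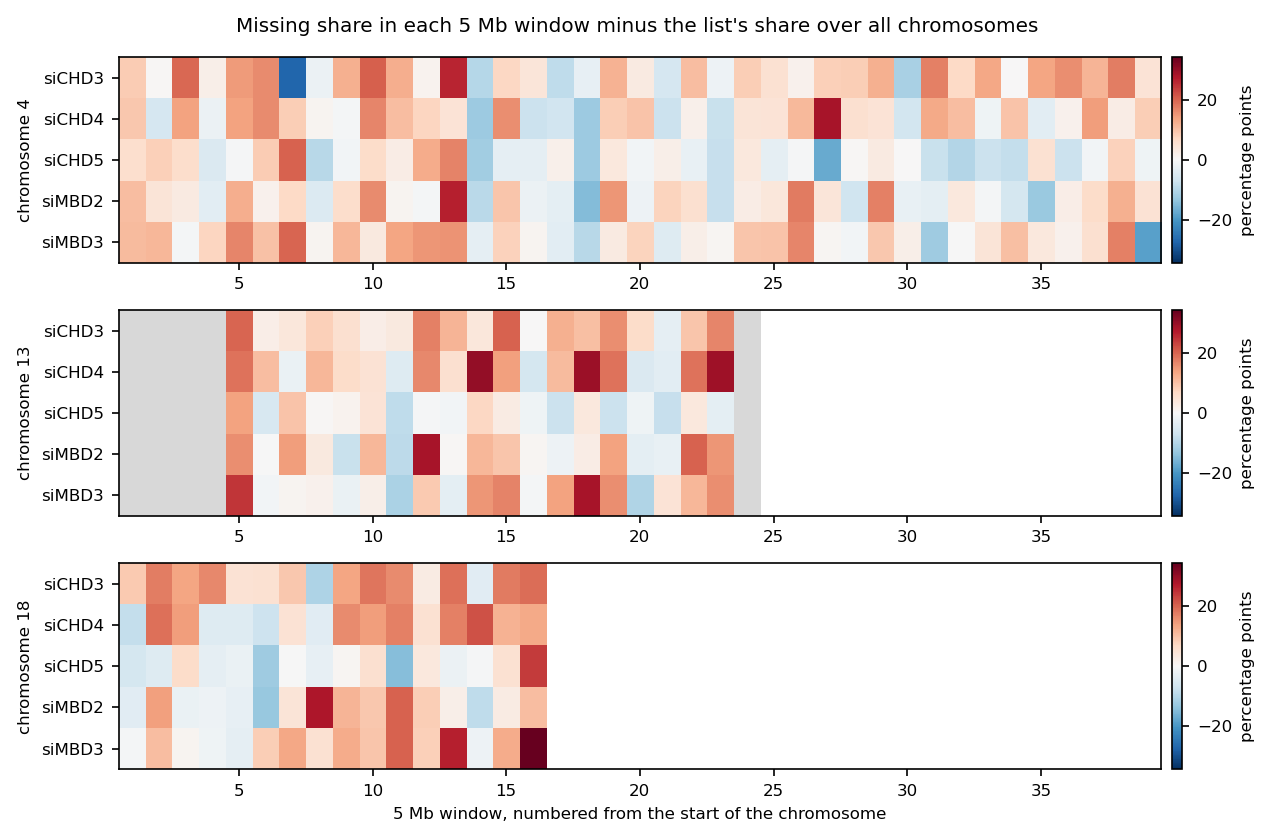
Share of siNC peaks missing in each 5 Mb window minus the share of the whole list (colour, percentage points), by window number along chromosomes 4, 13 and 18 for the 5 knockdown lists. Grey marks windows with under 10 siNC peaks; red, meaning more loss, covers 63 of 74 windows in siCHD3 and 33 of 74 in siCHD5.

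The window shares ranged from 8.33% to 61.5% in siCHD3, with a median of 44.0%. The range was 29.0% to 71.4% in siCHD4 (median 49.4%), 4.35% to 45.5% in siCHD5 (21.1%), 20.0% to 63.2% in siMBD2 (38.1%) and 20.0% to 72.7% in siMBD3 (45.0%). Averaged over the 5 lists, the window of highest loss on chromosome 4 was that from 60 to 65 Mb, with 52.3% of 13 peaks, and the lowest that from 85 to 90 Mb, with 24.0% of 55. On chromosome 13 they were the window from 20 to 25 Mb, near the start of the part that holds peaks, with 52.9% of 65 peaks, and that from 50 to 55 Mb, with 28.5% of 54. On chromosome 18 they were the last window, from 75 to 80 Mb, with 54.5% of 11 peaks, and that from 25 to 30 Mb, with 30.6% of 32. The siNC background moved with these extremes. It was 6.04, 6.04 and 3.91 in the windows of highest loss on chromosomes 4, 13 and 18, and 13.1, 12.8 and 8.17 in those of lowest loss. The mean standard shares were 45.4%, 52.8% and 49.3% in the former and 25.8%, 29.0% and 37.9% in the latter. In the window from 20 to 25 Mb on chromosome 13 the single lists went both ways, above the standard share in siCHD3 (55.4% against 49.6%), siCHD4 (39 of 65 against 57.1%) and siMBD3 (63.1% against 58.8%), and below it in siCHD5 (35.4% against 41.5%) and siMBD2 (50.8% against 56.8%).

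Single windows differed between knockdowns as counted. They were picked as the highest or lowest of a list on a chromosome, and their intervals take no account of that choice. Loss over all chromosomes also differed, from 21.5% in siCHD5 to 41.5% in siCHD4. The window from 130 to 135 Mb on chromosome 4 held 23 siNC peaks. Of these, 16 were missing in siCHD4 (69.6%, 47.1 to 86.8, standard share 38.3%), its highest share on that chromosome, and 1 in siCHD5 (4.35%), the lowest there. In siCHD3 10 of the 23 were missing, and in siMBD2 and siMBD3 9 each. On chromosome 13 siCHD4 missed 20 of 28 peaks from 65 to 70 Mb (71.4%, 51.3 to 86.8, standard share 48.1%), while siCHD3 missed 11, siCHD5 8, siMBD2 13 and siMBD3 15. From 85 to 90 Mb on the same chromosome, siMBD3 missed 16 of 24 (66.7%, 44.7 to 84.4, standard share 44.1%) and siCHD4 17 of 24. On chromosome 18 siMBD2 missed 10 of 16 peaks from 35 to 40 Mb (62.5%, 35.4 to 84.8), its highest share there, while siCHD3 missed 4 of the same 16, its lowest. The window from 30 to 35 Mb on chromosome 4 gave siCHD3 its lowest share, 1 of 12 (8.33%, 0.211 to 38.5), although the standard share was 51.8%. In that window siMBD3 had its highest share on chromosome 4, 7 of 12, close to its standard share of 59.4%.

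On chromosome 4 siMBD3 had its lowest share in the last window, from 190 to 195 Mb, with 2 of 10 peaks missing (2.52 to 55.6%, standard share 51.5%). On chromosome 13 the highest siCHD3 share was 55.6% of 45 peaks from 70 to 75 Mb (40.0 to 70.4, standard share 40.7%). The highest siMBD2 share there was 63.2% of 19 peaks from 55 to 60 Mb (38.4 to 83.7, standard share 46.1%). Both intervals hold the standard share. The last window of chromosome 18, from 75 to 80 Mb, had the highest share of that chromosome in siCHD3 (6 of 11), siCHD5 (5 of 11) and siMBD3 (8 of 11). For siCHD4 the highest on chromosome 18 was 12 of 19 from 65 to 70 Mb, and the lowest 15 of 45 in the first window. For siCHD5 the lowest on chromosome 18 was 2 of 29 from 50 to 55 Mb (6.90%, 0.846 to 22.8), below its standard share of 23.3%.

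Windows with few peaks lost a larger share in siCHD4 than windows with many. The 16 windows with 10 to 29 siNC peaks missed 56.4% in siCHD4 (50.9 to 61.9), the 45 with 30 to 59 missed 47.8% and the 13 with 60 or more missed 42.5% (39.2 to 45.9). The standard shares were 46.6%, 44.7% and 43.7%, so the intervals of the sparsest and the middle class (45.6 to 50.1) lay above their standards and that of the densest did not. In siCHD3 the shares were 45.1%, 44.2% and 39.8%, and the interval lay above the standard in the middle class (42.0 to 46.4 against 38.5%) but not in the sparsest (39.6 to 50.7 against 41.2%). In siMBD3 they were 48.8%, 44.3% and 42.7%. In siMBD2 they were 43.9%, 37.3% and 39.7%, and in siCHD5 22.1%, 19.8% and 23.8%, with no single order from sparse to dense. The siNC background was 7.11, 8.88 and 9.59 in the 3 classes.

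Net change was a loss in most windows. In siCHD4, siMBD2 and siMBD3 missing peaks outnumbered added ones in 74 of 74 windows. In siCHD5 this held in 63 windows, with 7 of net gain and 4 at balance. In siCHD3 it held in 57 windows, with 12 of net gain and 5 at balance, 8 of the 12 on chromosome 4. Over all chromosomes the lists held 69.9% of the siNC count in siCHD4, 71.3% in siMBD3 and 71.9% in siMBD2. They held 86.7% in siCHD5 and 94.6% in siCHD3. A shorter list can give net loss by its length alone, and windows of the other chromosomes were not counted. Whether net loss was particular to the chromosomes described here was therefore not tested.

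The counting interval of the added share lay wholly above the share of the whole list in 4 windows for siCHD3, 4 for siCHD5, 3 for siMBD3, 1 for siMBD2 and 0 for siCHD4. In siCHD5, 23 of 82 peaks from 5 to 10 Mb on chromosome 4 were added (28.0%, 18.7 to 39.1), its highest share on that chromosome. The same window was the highest of chromosome 4 in siMBD2, with 17 of 68 (15.3 to 37.0%), but gave 9 of 63 in siCHD4, 5 of 47 in siMBD3 and 30 of 83 in siCHD3. In siMBD3 the highest window of chromosome 4 was from 165 to 170 Mb, with 9 of 32 (28.1%, 13.7 to 46.7), and in siCHD4 from 135 to 140 Mb, with 6 of 22. In siCHD3, 25 of 51 peaks from 40 to 45 Mb on chromosome 13 were added (49.0%, 34.8 to 63.4) and 21 of 43 from 10 to 15 Mb on chromosome 18 (48.8%, 33.3 to 64.5). Its highest added share, 10 of 15, was from 60 to 65 Mb on chromosome 4, the window where it also missed 8 of 13 siNC peaks. From 60 to 65 Mb on chromosome 18, siCHD3 added 2 of 23 peaks (8.70%, 1.07 to 28.0) while missing 25 of 46.

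**Figure D5:**
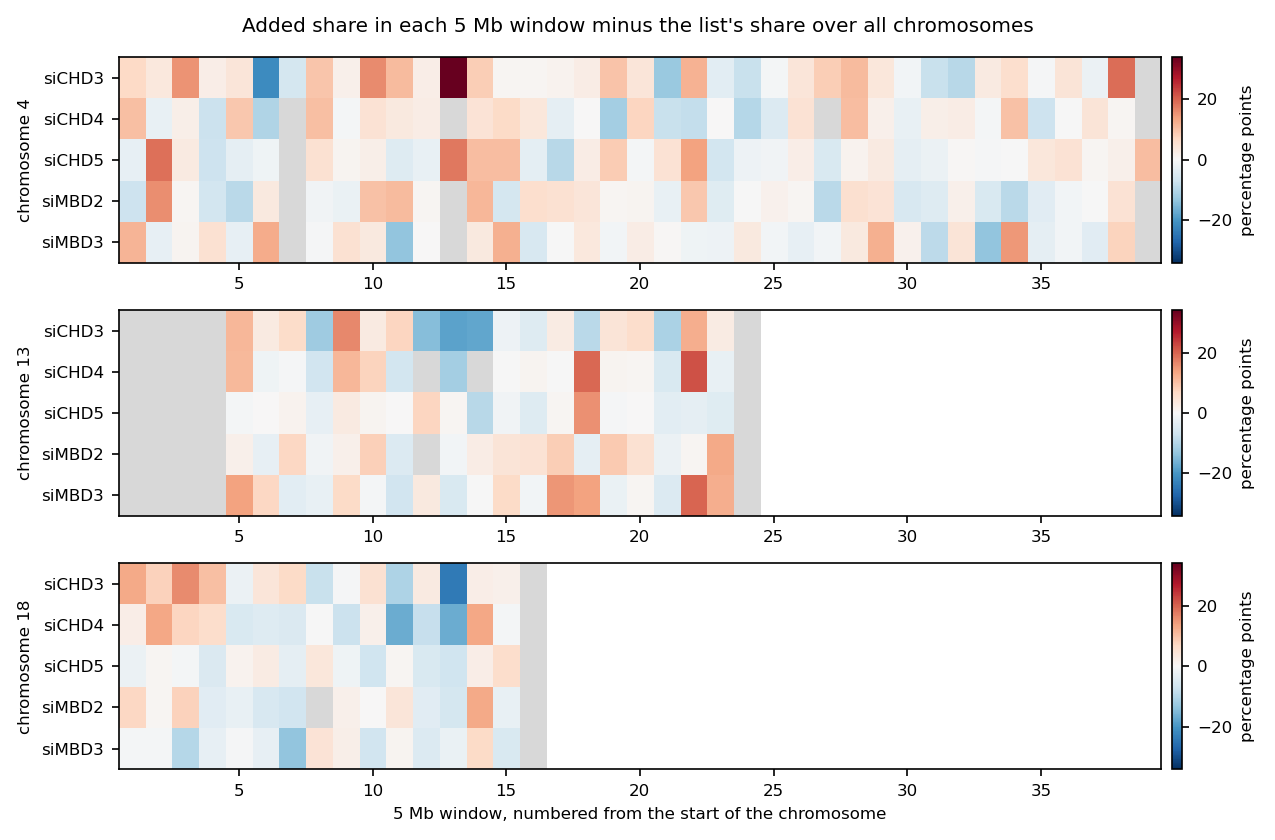
Share of knockdown peaks that were added in each 5 Mb window minus the share of the whole list (colour, percentage points), by window number along chromosomes 4, 13 and 18. Grey marks windows with under 10 knockdown peaks; the second window of chromosome 4, from 5 to 10 Mb, stands out in siCHD5 (23 of 82 peaks added) and siMBD2 (17 of 68).

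The longest stretch without a peak of any list split chromosomes 4 and 18 in 2. It spanned 3.03 Mb on chromosome 4, from 49637606 to 52665605, and 3.48 Mb on chromosome 18, from 15028291 to 18512823. On chromosome 4 the shorter side held 441 siNC peaks on a median background of 7.11, and the longer side 1232 peaks on 10.3. Loss was higher on the shorter side in all 5 lists, most in siMBD3, with 47.6% against 41.9%, and in siCHD5, with 24.9% against 19.4%, then in siMBD2 (40.6% against 36.3%), siCHD4 (46.9% against 44.2%) and siCHD3 (43.3% against 40.7%). The standard shares were also higher there, 42.0% against 35.4% in siCHD3 and 29.2% against 19.7% in siCHD5. On chromosome 18 the shorter side, with 142 siNC peaks, missed 49.3% in siCHD3 and 43.0% in siMBD3, against 45.9% and 48.7% of 499 peaks on the longer side. Gain in siCHD3 was 45.0% of 131 peaks on the shorter side of chromosome 18 and 33.3% of 399 on the longer side. Chromosome 13 had no such break, its widest stretch without a peak being 0.796 Mb.

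Neighbouring siNC peaks were sometimes missing in long rows. In siMBD3, 15 consecutive siNC peaks were missing on chromosome 13 from 23375646 to 24474075, and 12 on chromosome 18 from 61764718 to 64539831, a stretch of 2.78 Mb. For these rows depth predicted 65.6% and 62.3% missing. In siCHD4, 11 in a row were missing on chromosome 13 from 82446708 to 85444565 (3.00 Mb), 10 on chromosome 18 from 40750622 to 41710626 and 9 on chromosome 4 from 126353278 to 127548720, where depth predicted 18.3%, 15.3% and 10.4%. All rows here were picked as the longest, so every peak in them is missing by choice. Depth predicted 12.2% missing in siCHD4 over all chromosomes, where 41.5% were. How long a row random order would give was not tested. In siCHD3 the longest row was 11 peaks on chromosome 13 from 22212478 to 23733678, which overlaps the siMBD3 row. In siMBD2 it was 10 peaks on chromosome 4 from 140202392 to 140452338. In siCHD5 no row was longer than 5 peaks.

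Across the 6 lists, peaks on the 3 chromosomes merged into 4788 regions of 54382. Of these, 779 were called in all 6 lists (16.3%), against 21.7% over all chromosomes. The share was 16.6% on chromosome 4, 17.2% on chromosome 13 and 13.9% on chromosome 18, against 21.9% on chromosomes 16, 17 and 22. A further 708 regions were called in siCHD3 alone (14.8%, against 14.7% over all chromosomes) and 267 in siNC alone (5.58%, against 5.30%).

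Of the 9 strongest siNC peaks, 3 from each chromosome, 6 had a peak within 1 kb in all 5 knockdown lists. On chromosome 4 the peak from 17470292 to 17470580 had a fold of 17.9 (rank 24 of the siNC list) and had a peak within 1 kb in all 5 knockdown lists. The peak from 188892033 to 188892352 (fold 16.5) had a fold of 51.7 in siCHD3, 38.1 in siCHD4, 11.8 in siMBD3 and 6.43 in siCHD5, and none was called in siMBD2. The peak from 114135175 to 114135577 (fold 13.8) had folds of 93.9 in siCHD3, 43.1 in siCHD4, 19.3 in siMBD3, 12.2 in siCHD5 and 9.65 in siMBD2. Folds of different lists rest on different backgrounds and show no change. On chromosome 18 the peaks from 49814764 to 49815105 (fold 14.4) and from 864766 to 865182 (fold 13.6) were called in all lists. The peak from 66514545 to 66514905 (fold 17.2) was called in all lists but siMBD2. On chromosome 13 the peaks from 45964518 to 45965245 (fold 13.7) and from 77561541 to 77562621 (fold 13.6) were called in all lists. All positions are hg19, 1-based, and what these regions contain was not analysed here.

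The strongest siNC peak of chromosome 13, from 108974582 to 108974903 (fold 14.4, rank 90), was an exception. It had 56 fragments on a background of 2.96, and beside siNC it was called in siCHD5 (fold 5.70) alone. Thinning alone gave a predicted chance of missing it of 6.49% in siMBD3, 2.34% in siCHD3, 0.338% in siMBD2 and 0.000406% in siCHD4. These are model values and no measure of the real chance: of the strongest 20% of siNC peaks on all chromosomes, thinning predicted 0.242% missing in siCHD4 and 22.1% were, and 2.72% in siMBD2 where 14.8% were. Strong siNC peaks absent from siCHD3 (none within 1 kb) also lay on chromosome 18 at 623962 to 624427, with a siNC fold of 12.9, and on chromosome 4 at 133254090 to 133254485, with 12.2. Absent from siCHD4 was a peak on chromosome 4 at 17449321 to 17449689, which had a pileup of 81 fragments in siNC and was called in the other 4 knockdown lists. A peak of fold 12.4 on chromosome 13 at 24040939 to 24041185 was absent from both siCHD4 and siMBD3. Absent from siCHD5 were 2 peaks on chromosome 13, at 107188833 to 107189130 with a fold of 12.1 and at 97762167 to 97762512 with 11.6. The latter was also absent from siCHD4, siMBD2 and siMBD3. A peak of fold 11.1 on chromosome 4 at 46725875 to 46726396 was absent from siCHD5 too, while it had a fold of 40.7 in siCHD3 and 15.5 in siMBD3. A peak of fold 13.5 on chromosome 18 at 59303061 to 59303405 was absent from siMBD3, though called in the other 4 knockdown lists.

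Some siNC peaks lay more than 1 kb from every knockdown peak. The strongest on chromosome 4 were from 142297017 to 142297278 (fold 8.84), from 46331216 to 46331431 (fold 8.08) and from 10015446 to 10015664 (fold 7.22). On chromosome 13 they were from 111005260 to 111005486 (fold 7.07), from 107570457 to 107570711 (fold 6.56) and from 41603825 to 41604063 (fold 6.08). On chromosome 18 they were from 48188594 to 48188892 (fold 8.33), from 77006576 to 77006803 (fold 7.83) and from 61764718 to 61765030 (fold 7.57), the first peak of the siMBD3 row above. The strongest of these 9 had 34 fragments on a background of 2.96. Its predicted chance of being missed was 36.2% in siMBD3, 22.8% in siCHD3, 11.3% in siMBD2, 0.589% in siCHD4 and 5.05e-05% in siCHD5.

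Added peaks were led by few strong regions. A single region of the 3 chromosomes, on chromosome 18 at 20611444 to 20611868, was shared by the 5 knockdowns while siNC had none within 1 kb. Its folds were 16.5 in siCHD5, 9.78 in siCHD3, 8.97 in siMBD2, 8.78 in siMBD3 and 3.36 in siCHD4. Over all chromosomes 0.0846% of merged regions were called in the 5 knockdown lists without siNC. It was the strongest added peak of the 3 chromosomes in siCHD5 and in siMBD2. The next in siCHD5 lay on chromosome 4 at 104917176 to 104917512, with a fold of 10.5 and a call in 4 knockdown lists, and on chromosome 13 at 111609543 to 111609884, with a fold of 8.80. In siCHD3 the strongest lay on chromosome 4 at 54952865 to 54953327, with a fold of 22.8, and on chromosome 13 at 46543600 to 46544080, with a fold of 20.2, ahead of one at 23270243 to 23270671. All 3 were called in siCHD4 too. In siCHD4 a pair lay on chromosome 4, at 164471452 to 164471794 with a fold of 10.3 and at 78033899 to 78034283 with 9.71. The other strong siCHD4 addition lay on chromosome 13 at 49002146 to 49002569, with a fold of 9.05, and siCHD3 shared all 3. In siMBD2 the next were on chromosome 18 at 65820107 to 65820331, with a fold of 8.56, and on chromosome 4 at 75756221 to 75756491, with 8.54. In siMBD3 the 3 strongest all lay on chromosome 4, at 165118016 to 165118355 (fold 14.2), 140291350 to 140291547 (fold 12.8) and 173517440 to 173517653 (fold 10.8). The second of these was called in siMBD3 alone and lies within the row of 10 siNC peaks missing in siMBD2.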

How the data were processed

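Values came from 6 pooled lists (hg19), 1 per condition, laid out as MACS2 writes narrow peaks. The submitters' processing notes name MACS2 2.1.2, Bowtie2 2.3.4 and SAMtools 1.9, besides deepTools 3.5.0, FastQC 0.11.7 and bedtools 2.25.0. Which did what, and how it was set, is not given in the sources used here. Deposited by the authors were columns of linear fold enrichment (a ratio), −log10 p, −log10 q, summit offset and a display score, which was not used. Reads per sample were not used here.

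Summit pileup and background were solved from the deposited fold, taken as pileup plus 1 over background plus 1, and Poisson p, to within 0.01%. The lowest background of a list stood for its depth. siNC pileups were thinned binomially to each knockdown's depth for the predicted share. Overlap was 1 bp, computed with Python 3.11.15, numpy 2.4.6, scipy 1.17.1 and pandas 2.3.3, and checked on simulated data. Named were, by fold, the 3 strongest siNC peaks per chromosome, the 3 strongest missing and added per knockdown with none within 1 kb, the 3 per chromosome missing from all 5, regions in all 5 without siNC, and the windows of highest and lowest share. Members, lists and rules were chosen with earlier results of these data known. The planned search for CTCF motifs was not run, as an hg19 genome was not used here. Alternatives were other thresholds, overlaps, list lengths and windows.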

Additional observations from a re-analysis of the deposited data

How the results depend on the processing

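Values below follow the order siCHD3, siCHD4, siCHD5, siMBD2, siMBD3 and concern chromosomes 4, 13 and 18. When both lists were cut at a −log10 q of 10, the share missing was 71.1%, 69.8%, 19.8%, 59.8% and 71.7%, the share added 21.7%, 8.62%, 8.66%, 2.26% and 2.37%, and the difference from the other chromosomes 13.2, 11.5, 1.77, 9.98 and 11.5 points. This cut kept 2474 of 3149 siNC peaks, but 905 of 2761, 812 of 2001, 2171 of 2763, 1016 of 2165 and 716 of 2056 knockdown peaks. With that threshold on the counted list alone, the share missing was 36.9%, 40.8%, 9.74%, 27.7% and 35.4%, and the share added 10.6%, 2.09%, 3.87%, 0.787% and 1.26%. With reciprocal overlap of 50%, the share missing was 46.7% in siCHD3, 50.3% in siCHD4, 40.8% in siMBD2 and 47.2% in siMBD3, the shares added were 39.2%, 21.8%, 11.8%, 13.9% and 19.2%, and the siCHD3 difference was 6.47 points. With every list cut to its 25358 peaks of smallest p, the share missing was 40.2%, 36.7%, 14.2%, 23.5% and 30.6%, the share added 32.9%, 32.2%, 14.8%, 21.4% and 26.1%, and the siCHD3 difference 10.8 points. Weighting each siNC peak by how likely the knockdown's depth was to give a call, an alternative chosen after the data were seen, gave 34.9%, 44.3%, 19.6%, 29.0% and 31.5% missing. The cause of these shifts was not tested. Under the 4 planned settings and the main one, the difference from the other chromosomes stayed positive in siCHD3 (6.47 to 13.2 points), siCHD4 (5.52 to 11.5), siMBD2 (4.05 to 9.98) and siMBD3 (5.56 to 11.5), and ranged from -0.35 to 1.77 in siCHD5. Shifting the windows by 2.5 Mb left the share of windows above the whole list at 85.3% in siCHD3 and 46.7% in siCHD5, and windows of 10 Mb gave 94.7% and 39.5%. No paired analysis was possible because each list pools the 3 replicates and the results come from no test.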
